A study of Homo sapiens with 6 samples.

Results

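The FGF7 subfamily of fibroblast growth factors and the 4 FGF receptors were examined in microarrays of human A431 cells with and without CD109. The subfamily holds the ligands FGF7, FGF10 and FGF22 and, by sequence, FGF3, and the receptors are FGFR1, FGFR2, FGFR3 and FGFR4. All 8 genes were found by symbol, each with 1 probe set, among the 17687 named genes of the array. They were listed with the difference between CD109-KO and parental cells in view, so their own values are given as a description with no test.

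A431 is an established line from a human squamous (epidermoid) carcinoma, and CD109 is a membrane-anchored coreceptor that dampens TGF-β signaling. The CD109-KO group consisted of clones 26, 32 and 180, A431 cells that had received Cas9 with a guide to exon 1 or exon 2 of CD109. Each was grown out of a single sorted CD109-negative cell. The transfected cells were expanded before that sort, and the sources leave unsaid if the 3 clones arose from separate edits. The parental group consisted of A431 samples 5, 2 and 6, labelled wild type, and the study describes editing and cloning only for the knockout cells. The treatment field of the labels names the knockout for parental samples too, so the groups were taken from the genotype and the titles. Cells of both groups were grown in complete medium with no added FGF or inhibitor given in the labels, and RNA of each clone or parental sample was measured on 1 Clariom S array. The study describes its array comparison as one of biological replicates with technical repeats. The labels leave unsaid if samples 5, 2 and 6 came from separate cultures or were repeats, and all p-values measure only the spread between these samples. The 3 clones share the single-cell step, which cannot be told apart from the loss of CD109.

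FGF7, FGF10 and FGF22 are paracrine signals. In skin, lung and other organs mesenchymal cells release FGF7 and FGF10, and neighbouring epithelial cells receive them through the IIIb splice form of FGFR2, with heparan sulfate needed to hold ligand and receptor together. The IIIb form is made in epithelial cells with the help of the splicing factors ESRP1 and ESRP2, whereas mesenchymal cells make the IIIc form, which these ligands bind poorly. A Clariom S probe set gives 1 value per gene and does not separate the forms.

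The sequences just upstream of FGF10, FGF7 and FGF22 are shown because these were the ligands with the largest differences. Each is the 250 bases before the RefSeq start of the gene on GRCh38.p14, read 5′ to 3′ on the strand of the gene, with motifs searched on both strands in capitals. The E-box was spelled CANNTG. The AP-1 site was spelled TGANTCA. Also searched were the TATA box, spelled TATAAA, and the CCAAT box, spelled as its name. FGF10 lies at chr5:44389421-44389670 on the minus strand, FGF7 at chr15:49422992-49423241 on the plus strand and FGF22 at chr19:639629-639878 on the plus strand.
FGF10: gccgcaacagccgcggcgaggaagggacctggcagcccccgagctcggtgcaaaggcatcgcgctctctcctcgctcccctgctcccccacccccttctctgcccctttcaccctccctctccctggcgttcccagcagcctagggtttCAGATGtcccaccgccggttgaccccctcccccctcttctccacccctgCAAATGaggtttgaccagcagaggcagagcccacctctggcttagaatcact
FGF7: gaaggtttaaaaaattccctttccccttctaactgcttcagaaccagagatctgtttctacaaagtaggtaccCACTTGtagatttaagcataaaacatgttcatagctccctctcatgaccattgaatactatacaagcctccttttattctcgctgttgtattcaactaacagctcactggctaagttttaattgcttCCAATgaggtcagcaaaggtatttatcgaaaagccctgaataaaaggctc
FGF22: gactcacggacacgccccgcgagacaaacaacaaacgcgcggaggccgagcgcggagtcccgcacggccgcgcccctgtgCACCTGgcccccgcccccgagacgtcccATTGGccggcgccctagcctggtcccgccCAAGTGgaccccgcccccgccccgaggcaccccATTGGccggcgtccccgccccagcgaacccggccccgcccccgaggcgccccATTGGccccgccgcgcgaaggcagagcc

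The 3 windows had little in common in base composition. GC content was 65.6% for FGF10, 38.4% for FGF7 and 78.0% for FGF22, against a median of 58.0% over the 35116 RefSeq promoters searched in windows of the same length. FGF10 held 2 E-boxes, FGF7 held 1 and FGF22 held 2, and 61.8% of all promoters hold at least 1. The E-box variant CACCTG, which is counted among the CANNTG matches too and is the type bound by ZEB and SNAIL repressors, occurred 1 time in FGF22 and in 17.5% of all promoters. CCAAT was found 1 time for FGF7 and 3 times for FGF22, and in 32.01% of all promoters. TGANTCA and TATAAA, present in 6.57% and 10.7% of all promoters, had no match in these 3 windows. FGF22 also held 6 copies of GGGCGG (GC box), a motif of 42.6% of all promoters that is not capitalized here. These are matches of letters, and no binding was measured.

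Before the FGF genes were compared, the edited gene and the arrays were examined. CD109 had log2 signals of 3.64, 3.45 and 3.62 in CD109-KO clones 26, 32 and 180, against 7.57, 7.75 and 8.13 in parental samples 5, 2 and 6. The log2 difference was -4.25 (standard error 0.23, adjusted p = 1.09e-07 from limma), which against the array background as deposited is at least 4.68-fold lower. Where its probes lie relative to the edited exons was not examined. A gene was called higher or lower where limma gave an adjusted p below 0.01 and the fold change reached 2. By this rule 6410 genes (36.2%) were higher and 4746 (26.8%) lower in CD109-KO cells. With its own software and like cut-offs the study reported fewer genes in each direction, and more lower than higher. The reason for the difference was not examined. For each array the 348 olfactory receptor genes, whose products act in the nose, gave a background level at their 95th percentile. It was higher in CD109-KO arrays (5.51 to 5.71) than in parental arrays (4.07 to 4.20), and 7838 to 8674 genes exceeded it in a CD109-KO array against 12105 to 12297 in a parental array. Olfactory receptor genes had a median log2 difference of 0.83, and 137 of 348 were called higher and 0 lower, with 249 lying above all parental values in all 3 CD109-KO arrays. Dim genes in general were brighter in CD109-KO arrays. The median difference was 1.16 over 4630 genes with a parental mean between 2 and 4, 1.09 over 5450 genes between 4 and 6, and -0.86 over 4833 genes between 6 and 8. The part of this shift in the FGF values was not tested, and each member is therefore set beside it. Genes with a parental mean above 8 were not grouped in this way, so falls of such bright genes named below have no comparison at their level.

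The cells named by the labels are squamous epithelial cells, and the markers of that type fell in the clones. All 12 measured squamous epithelial markers were lower in CD109-KO cells by the limma test, with a mean level of 5.83 to 6.09 in CD109-KO arrays and 9.56 to 9.79 in parental arrays. The adhesion genes CDH1 (E-cadherin), EPCAM and DSG3 were below background in all 3 CD109-KO arrays and above it in all 3 parental arrays. In contrast, 11 of 13 measured fibroblast markers rose, LUM, a proteoglycan, fell and FAP did not pass, with a mean level of 6.05 to 6.12 in CD109-KO arrays and 3.93 to 4.32 in parental arrays. Of these, VIM and COL1A2 averaged 11.17 and 11.77 in CD109-KO cells and 4.48 and 6.57 in parental cells, while 6 fibroblast markers, PDGFRA and POSTN among them, were below background in all CD109-KO arrays. Of 7 smooth muscle markers 6 were higher (mean level 6.83 to 6.91 in CD109-KO arrays, 4.77 to 5.24 in parental arrays). Among markers of other cell types, 6 of 9 endothelial, 2 of 5 melanocyte, 4 of 7 neuron and 4 of 7 blood cell markers were called higher and 1 blood cell marker, CD68, lower. Over all genes 36.2% were called higher and 26.8% lower. Of 35 genes that every human cell needs, 2 were higher and 21 lower. The part of these marker changes in the FGF values was not tested. In such bulk RNA, fewer cells of a type and less RNA per cell cannot be told apart.

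FGF10 was bright in all 3 clones and below background in all 3 parental samples. FGF10, the mesenchymal signal without which lungs and limbs do not form in mice, had log2 signals of 11.22, 11.38 and 11.44 in CD109-KO clones 26, 32 and 180, against 3.75, 2.97 and 2.83 in parental samples 5, 2 and 6. The 3 clones were nearly equal, and the groups lay far apart. The mean log2 signal was 11.34 ± 0.11 in CD109-KO cells and 3.18 ± 0.49 in parental cells (SD, n = 3 each), a log2 difference of 8.16 (standard error 0.27). Since the parental level was not above background, only a bound on the fold can be given. As deposited, FGF10 was at least 148-fold higher, with the mean of the CD109-KO arrays set against the mean of the parental backgrounds. The bound was 192-fold with the background at the 90th percentile and 89.6-fold at the 99th. FGF10 lies on chromosome 5 from 44300247 to 44389420 (GRCh38.p14, minus strand).

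FGF7 (keratinocyte growth factor) showed the same pattern at a lower level. FGF7 had log2 signals of 8.42, 8.50 and 8.46 in CD109-KO clones 26, 32 and 180, against 3.76, 2.51 and 3.49 in parental samples 5, 2 and 6. All 3 clones were above background and all 3 parental samples below it, and the clones differed among themselves by less than the parental samples did. The mean was 8.46 ± 0.04 in CD109-KO cells and 3.25 ± 0.66 in parental cells (SD, n = 3 each), a log2 difference of 5.21 (standard error 0.31). The parental level was again not above background, and by the same bound FGF7 as deposited was at least 20.01-fold higher. For genes as dim as FGF10 and FGF7 in parental cells, between 2 and 4, the 90th percentile of the difference was 1.93, and 0 of 348 olfactory receptor genes reached the difference of either. FGF7 lies on chromosome 15 from 49423242 to 49488775 (plus strand).

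**Figure D1:**
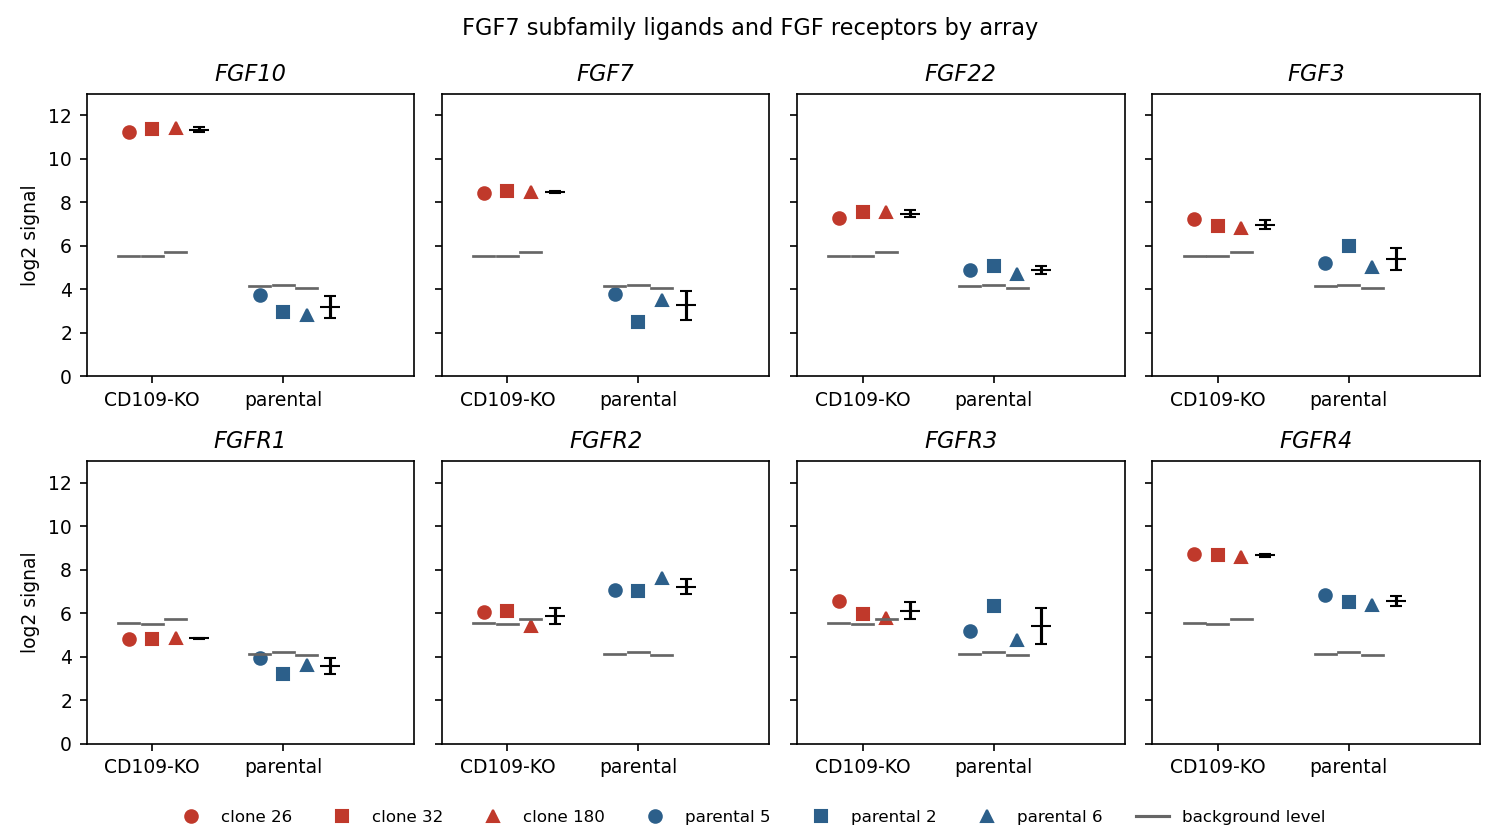
Log2 signal (y axis) of the FGF7 subfamily ligands (top) and FGF receptors (bottom) in the 3 CD109-KO clones (red, left) and 3 parental A431 samples (blue, right). Black marks are means ± SD and grey lines the background level of each array. FGF10 lies at 11.22 to 11.44 in the clones and below background in parental cells, and FGFR1 is below background throughout.

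FGF22 and FGF3 were measured above background in all 6 arrays and differed less. FGF22, a ligand made by keratinocytes and known from synapses in the mouse brain, had log2 signals of 7.29, 7.56 and 7.56 in CD109-KO clones 26, 32 and 180, against 4.90, 5.09 and 4.71 in parental samples 5, 2 and 6. The groups did not overlap, with means of 7.47 ± 0.16 in CD109-KO cells and 4.90 ± 0.19 in parental cells (SD, n = 3 each) and a log2 difference of 2.57 (standard error 0.22), which is 5.95-fold. That value exceeded the 90th percentile (2.03) of the 5450 genes with a parental mean between 4 and 6, and 1.14% of all genes and 2 olfactory receptor genes had a difference at least as high. FGF22 lies on chromosome 19 from 639879 to 644373 (plus strand).

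FGF3, a signal for inner ear formation, had log2 signals of 7.22, 6.88 and 6.82 in CD109-KO clones 26, 32 and 180, against 5.18, 5.98 and 5.00 in parental samples 5, 2 and 6. No clone was as low as any parental sample, and parental sample 2 was the closest to the clones. The means were 6.98 ± 0.21 in CD109-KO cells and 5.39 ± 0.52 in parental cells (SD, n = 3 each), with a log2 difference of 1.59 (standard error 0.28), or 3.003-fold. A difference this high was common in these arrays, with 17.7% of all genes and 38 of 348 olfactory receptor genes reaching it. FGF3 lies on chromosome 11 from 69809968 to 69819416 (minus strand).

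The receptors did not move as one group. FGFR2, the receptor of FGF7 and FGF10 on epithelial cells, had log2 signals of 6.07, 6.10 and 5.42 in CD109-KO clones 26, 32 and 180, against 7.06, 7.01 and 7.61 in parental samples 5, 2 and 6. All 3 clones were lower than all 3 parental samples, and clone 180 was below the background of its array. The means were 5.86 ± 0.38 in CD109-KO cells and 7.23 ± 0.34 in parental cells (SD, n = 3 each), a log2 difference of -1.36 (standard error 0.27). No fold is given because clone 180 was below background. With the background at the 99th percentile FGFR2 as deposited was at least 1.61-fold lower, a bound that does not hold under every scaling. The difference lay within the range of genes of like parental level, whose 10th and 90th percentiles were -3.10 and 1.27, and it turned to 0.32 when arrays were centred on 36 probe sets of housekeeping genes, those every human cell needs. FGFR2 lies on chromosome 10 from 121478330 to 121598458 (minus strand).

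FGFR4, which binds FGF19 with the coreceptor KLB in liver, had log2 signals of 8.72, 8.67 and 8.57 in CD109-KO clones 26, 32 and 180, against 6.82, 6.52 and 6.39 in parental samples 5, 2 and 6. It was above background in all 6 arrays and the groups were far apart. Its means were 8.65 ± 0.08 in CD109-KO cells and 6.58 ± 0.22 in parental cells (SD, n = 3 each), a log2 difference of 2.08 (standard error 0.22), or 4.23-fold. Among the 4833 genes of like parental level the median difference was -0.86 and the 90th percentile 1.27, and FGFR4 lay above both, while 4.81% of all genes had a difference at least as high. FGFR4 lies on chromosome 5 from 177086915 to 177098144 (plus strand).

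FGFR3, a receptor that restrains bone growth, had log2 signals of 6.57, 5.98 and 5.80 in CD109-KO clones 26, 32 and 180, against 5.16, 6.32 and 4.76 in parental samples 5, 2 and 6. The groups overlapped, since parental sample 2 exceeded clones 32 and 180. The means were 6.12 ± 0.40 in CD109-KO cells and 5.42 ± 0.81 in parental cells (SD, n = 3 each), and the log2 difference of 0.70 (standard error 0.37) was 1.15 without parental sample 2 and 0.37 without parental sample 6. It was -0.51 after centring on antigenomic controls and -0.17 after centring on olfactory receptors, so that FGFR3 has no settled direction here. FGFR3 lies on chromosome 4 from 1793293 to 1808867 (plus strand).

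FGFR1, the main receptor of mesenchymal cells, had log2 signals of 4.83, 4.80 and 4.88 in CD109-KO clones 26, 32 and 180, against 3.95, 3.21 and 3.60 in parental samples 5, 2 and 6. It was above background in 0 of 6 arrays, so no fold is given. With the background at the 90th percentile it exceeded that level in 2 of 6 arrays. FGFR1 lies on chromosome 8 from 38411143 to 38468635.

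By the rule used for all genes, 6 of the 8 members would count as higher, 1 as lower and 1 as not called, where 36.2% of all genes were called higher, 26.8% lower and 63.1% in either direction. In 6 members all CD109-KO values lay above all parental values, as in 48.9% of all genes, in 1 they lay below, as in 31.8%, and in 1 the groups overlapped, while 80.7% of all genes did not overlap. FGFR1 is among the 6, although it was below background, which leaves 5 that were called higher and above background in all CD109-KO arrays, as were 18.9% of all genes. The median log2 difference was 1.83 over the 8 members and 0.51 over all genes. The members were chosen on this contrast, and nothing is read from these counts.

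**Figure D2:**
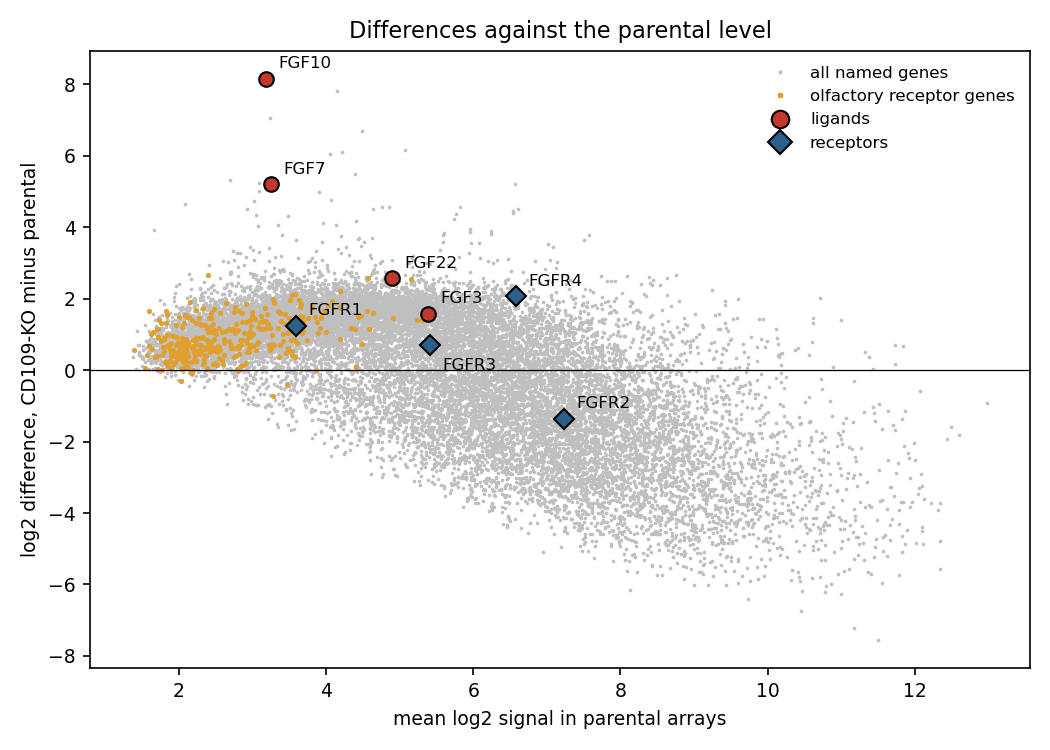
Log2 difference, CD109-KO minus parental (y axis), against the mean log2 signal in parental arrays (x axis) for all 17687 named genes (grey), 348 olfactory receptor genes (orange), the ligands (red circles) and the FGF receptors (blue diamonds). FGF10 (8.16) and FGF7 (5.21) stand far above genes of the same parental level, FGF3 and FGFR1 lie among them, and FGFR2 lies among the bright genes that were lower in CD109-KO cells.

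How far each member depends on the scaling of the arrays was examined with 4 other scalings. Centring on housekeeping genes raised every difference by 1.68, and centring on 23 antigenomic controls or on olfactory receptor genes lowered it by 1.21 or 0.87, so that the median over all gene probe sets was 2.25, -0.64 and -0.30 against 0.56 as deposited and 0.43 after a repeated quantile normalization. FGF10 kept a difference of 6.95 to 9.84 and FGF7 of 4.001 to 6.89 under the 5 scalings. FGF22 ranged over 1.37 to 4.25 and FGFR4 over 0.87 to 3.76. FGF3 was 0.38 after centring on antigenomic controls and 0.72 after centring on olfactory receptors, and FGFR2 was -2.57 and -2.23. Of all 17687 genes 12103 were called higher and 1875 lower after centring on housekeeping genes. After centring on antigenomic controls 553 were higher and 7504 lower, and on olfactory receptors 1609 and 6659. The counts of the gene lists below are to be read against these.

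**Figure D3:**
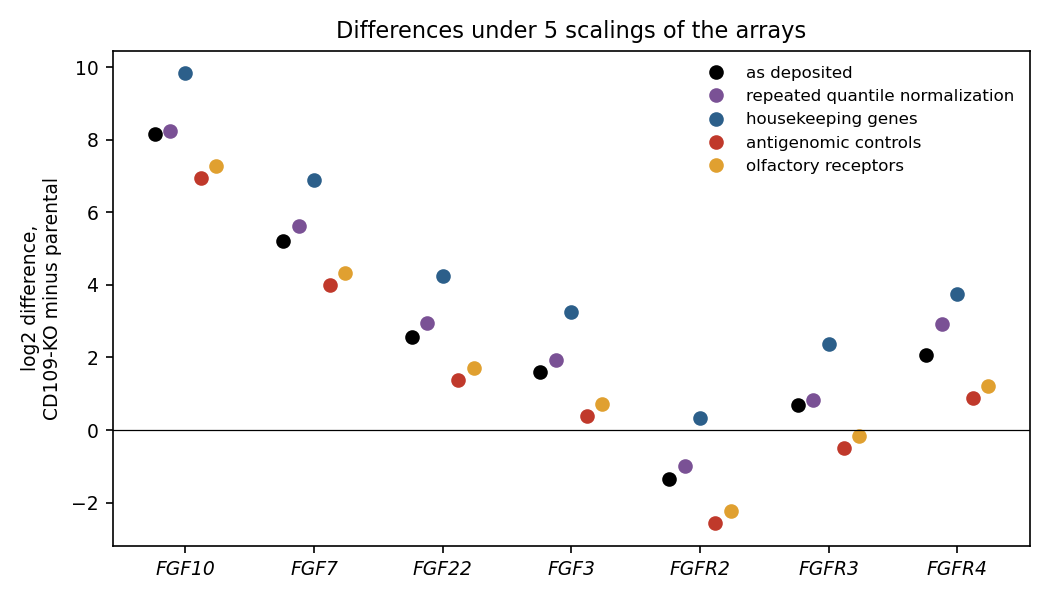
Log2 difference, CD109-KO minus parental (y axis), of 7 members under 5 scalings (colours). The 4 ligands and FGFR4 are above 0 in all 5, whereas FGFR2 turns to 0.32 after centring on housekeeping genes and FGFR3 turns to -0.51 and -0.17 after centring on antigenomic controls and olfactory receptors.

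Most of the other FGF ligands were called higher, with log2 differences on both sides of that of FGF3 and below that of FGF22. Of 11 other paracrine ligands 9 were higher in CD109-KO cells, 0 were lower and 2 did not pass the limma test, where 36.2% of all genes were called higher, and their median log2 difference was 1.63 against 0.51 over all genes. FGF1, which binds every FGF receptor, averaged 5.53 ± 0.19 in CD109-KO cells and 3.46 ± 0.46 in parental cells (SD, n = 3 each) and was called higher (adjusted p = 3.73e-05 from limma), but 2 of 3 CD109-KO arrays and 0 of 3 parental arrays were above background, so no fold is given. FGF17, below background in all parental arrays, was as deposited at least 3.19-fold higher, and FGF18, a signal in cartilage, rose by 1.86. FGF2, the basic fibroblast growth factor, and FGF5, a brake on hair growth, did not pass, with log2 differences of 0.72 and 0.57. After centring on olfactory receptors 2 of these ligands passed as higher, and 0 after centring on antigenomic controls. Of all 17687 genes 1609 and 553 did.

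All 3 endocrine ligands were higher. FGF23, the hormone that makes the kidney excrete phosphate, averaged 6.47 ± 0.12 in CD109-KO cells and 4.34 ± 0.20 in parental cells (SD, n = 3 each) and rose by 2.13 (standard error 0.22, adjusted p = 8.03e-06 from limma). FGF21, a hormone of fasting, rose by 1.65, and FGF19, which reports bile acids to the liver, by 1.57. Of the intracellular homologous factors, which bind sodium channels and no receptor, FGF13 rose by 1.69, and FGF11 (-0.74) and FGF12 (0.47, above background in no array) did not pass. In all, 13 of 17 measured FGF genes outside the FGF7 subfamily were higher, by 1.09 to 2.13, where 36.2% of all genes were called higher. Genes with a parental mean between 4 and 6 had a median difference of 1.09 and a 90th percentile of 2.03. After centring on antigenomic controls 0 of the 3 endocrine ligands passed, and 1 after centring on olfactory receptors or by the methods' t-test. Of all genes 553, 1609 and 4391 passed as higher under these settings.

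**Figure D4:**
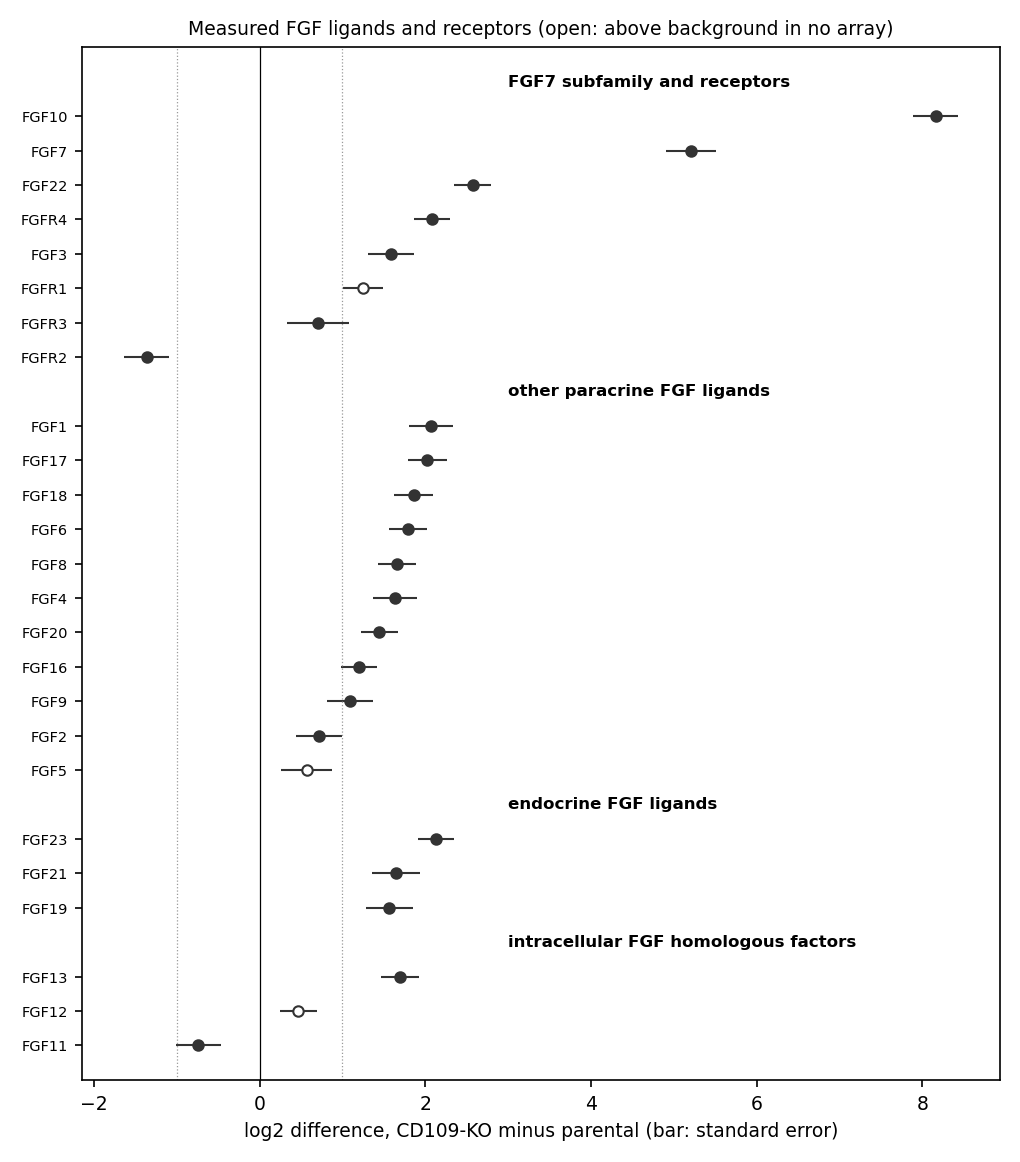
Log2 difference, CD109-KO minus parental (x axis, bars are standard errors), of the 8 members and 17 other measured FGF genes, grouped by class. Open circles are genes above background in no array and dotted lines mark a fold change of 2. Apart from FGF10, FGF7 and FGF22 the ligands lie at 2.13 or below, and positive differences under 1.21 fall below 0 after centring on antigenomic controls.

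Genes for proteins that hold or present FGFs were called in both directions. Of 9 coreceptors and binding proteins 6 were called higher, 1 lower and 2 not, with a median of 1.31. Over all genes 36.2% were called higher and 26.8% lower, with a median of 0.51. However, 5 of the 9 were above background in no array, FLRT1, FLRT3 and KLB (the coreceptor of FGF19 and FGF21) among them. FGFRL1, a receptor that lacks the kinase domain, averaged 7.38 ± 0.20 in CD109-KO cells and 5.78 ± 0.35 in parental cells (SD, n = 3 each) and rose by 1.60 (standard error 0.25, adjusted p = 0.000133 from limma). FGFBP1, an epithelial secreted protein that releases FGF7, FGF10 and FGF22 from the matrix, had log2 signals of 5.44, 4.68 and 5.06 in CD109-KO clones 26, 32 and 180, against 6.77, 7.76 and 7.65 in parental samples 5, 2 and 6. All clones were below background, and FGFBP1 as deposited was at least 3.50-fold lower (log2 difference -2.34, standard error 0.31, adjusted p = 4.21e-05 from limma). The call of FGFBP1 ended after centring on housekeeping genes (-0.65), and 0 members passed as higher after centring on antigenomic controls or olfactory receptors, with KLB at -0.16 after the first of these. The counts over all genes shifted in the same directions.

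SDC1 and SDC4, syndecans that carry heparan sulfate on epithelial cells, fell, while others rose or did not pass. Of 13 measured proteoglycans 5 were higher, 2 lower and 6 did not pass, where 36.2% of all genes were called higher and 26.8% lower. SDC4 (syndecan 4) had log2 signals of 5.99, 6.42 and 5.91 in CD109-KO clones 26, 32 and 180, against 10.08, 10.92 and 10.74 in parental samples 5, 2 and 6, and fell by 4.47 (standard error 0.27, adjusted p = 2.00e-07 from limma). SDC1 averaged 6.73 ± 0.11 in CD109-KO cells and 9.97 ± 0.37 in parental cells (SD, n = 3 each) and fell by 3.24. Both falls held under all 4 other scalings. Centring moves all genes of an array alike and cannot correct a shift that differs with level. No genes of like parental level were compared. COL18A1, a basement membrane collagen with heparan sulfate chains, rose by 2.55, and its call also held under all 4 other scalings. GPC2 was called higher with 1 CD109-KO array and no parental array above background and GPC4 with no array above background, so that no fold is given for either. The counts followed the scaling, as those over all genes did, with 11 higher after centring on housekeeping genes and 1 higher and 5 lower after centring on antigenomic controls.

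Of 19 measured enzymes that build and trim heparan sulfate 7 were higher, 5 lower and 7 not called. These shares were near those over all genes (36.2% higher, 26.8% lower), and nothing is read from them. HS6ST2, a 6-O-sulfotransferase, rose by 2.38 (standard error 0.31, adjusted p = 3.64e-05 from limma), and the 3-O-sulfotransferase HS3ST3B1 rose by 2.05. HS3ST2, another 3-O-sulfotransferase, was called higher with 1 CD109-KO array and no parental array above background, so no fold is given. EXT2, which with EXT1 extends the chain, averaged 4.36 ± 0.90 in CD109-KO cells and 6.95 ± 0.48 in parental cells (SD, n = 3 each). As deposited it was at least 2.56-fold lower. Heparanase (HPSE) and the epimerase GLCE as deposited were at least 1.65-fold and 1.45-fold lower, all 3 being below background in every CD109-KO array. After centring on antigenomic controls 0 of the enzymes passed as higher and 9 as lower. After centring on housekeeping genes 14 passed as higher and 0 as lower, and the falls of EXT2 (-0.91), HPSE (-0.48) and GLCE (-0.18) did not pass. The counts over all genes shifted in the same directions.

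Of 16 measured genes that carry the signal inside the cell 2 were higher, 7 lower and 7 did not pass, with a median of -0.83. Among all genes 36.2% were called higher and 26.8% lower. GAB1, a docking protein of receptor kinases, had log2 signals of 4.35, 2.75 and 3.44 in CD109-KO clones 26, 32 and 180, against 6.60, 6.89 and 6.84 in parental samples 5, 2 and 6. As deposited it was at least 2.28-fold lower (log2 difference -3.26, standard error 0.35, adjusted p = 9.76e-06 from limma). PTPN11, the phosphatase SHP2, fell by 2.78, with 1 CD109-KO array above background. SOS1, the exchange factor that loads RAS, was as deposited at least 5.49-fold lower. GAB2, the close relative of GAB1, was called higher with 1 CD109-KO array and no parental array above background, so no fold is given. The calls of GAB1, PTPN11 and SOS1 held under all 4 other scalings, with differences of -1.58, -1.10 and -1.07 after centring on housekeeping genes. PLCG1, which rose by 1.69, did not pass after centring on antigenomic controls (0.48) or olfactory receptors (0.82). The list had 7 genes higher and 3 lower after centring on housekeeping genes, and 1 higher and 11 lower after centring on antigenomic controls or olfactory receptors. The counts over all genes shifted in the same directions. FRS2, the adaptor that FGF receptors use first, was not analysed here.

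Genes that FGF signaling switches on, and the inhibitors among them, had counts that followed the scaling, as the counts over all genes did. As deposited, 6 of 17 measured genes were higher, 2 lower and 9 not called, where 36.2% of all genes were higher and 26.8% lower. The list had 15 higher and 2 lower after centring on housekeeping genes, where 12103 of all 17687 genes were higher and 1875 lower. It had 2 higher and 6 lower after centring on antigenomic controls, where 553 of all genes were higher and 7504 lower. After centring on olfactory receptors the list had 2 higher and 5 lower, where 1609 of all genes were higher and 6659 lower. ETV1, an ETS factor induced by FGF, had log2 signals of 6.47, 6.54 and 6.95 in CD109-KO clones 26, 32 and 180, against 3.11, 3.99 and 2.59 in parental samples 5, 2 and 6. As deposited it was at least 5.73-fold higher (log2 difference 3.42, standard error 0.33, adjusted p = 4.99e-06 from limma). SPRY2, a feedback inhibitor of receptor kinases, averaged 7.53 ± 0.28 in CD109-KO cells and 4.31 ± 0.36 in parental cells (SD, n = 3 each) and rose by 3.21. In contrast, CCND1 (cyclin D1) fell by 3.72 and ID2 was as deposited at least 10.7-fold lower. SPRED3, another inhibitor, was called higher with no array above background. The calls of ETV1, SPRY2, CCND1 and ID2 held under all 4 other scalings. ETV1 and SPRY2 were at 2.22 and 2.01 after centring on antigenomic controls. CCND1 and ID2 were at -2.04 and -2.66 after centring on housekeeping genes, and were not compared with genes of like parental level. DUSP6, the phosphatase most often used as a readout of FGF and ERK signaling, did not pass, with 6.91, 6.82 and 6.21 in CD109-KO clones 26, 32 and 180, against 6.65, 7.12 and 7.07 in parental samples 5, 2 and 6. Its groups overlapped, as did those of the immediate early gene EGR1 (log2 difference -0.12) and of SPRY1 (-0.39).

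Of 17 measured splicing factors that act on FGF receptor transcripts or are related to those that do, 8 were lower, 3 higher and 6 not called. Their median was -0.96, and 26.8% of all genes were called lower and 36.2% higher. ESRP1, the epithelial factor that favours the IIIb form of FGFR2, had log2 signals of 5.19, 4.35 and 4.13 in CD109-KO clones 26, 32 and 180, against 10.60, 10.92 and 10.81 in parental samples 5, 2 and 6. It was below background in every clone and far above it in every parental sample. As deposited ESRP1 was at least 36.4-fold lower (log2 difference -6.22, standard error 0.29, adjusted p = 6.55e-08 from limma). HNRNPA1, which represses the IIIb exon, fell by 4.66, and PTBP3, a relative of the repressor PTBP1, by 4.44. These 3 falls held under all 4 other scalings, but no genes of like parental level were compared. QKI, a factor of mesenchymal splicing, rose by 1.84, RBFOX3, by name a neuronal factor, by 2.01, and TIA1 by 1.18, which turned to -0.03 after centring on antigenomic controls. After centring on housekeeping genes 7 of these factors were higher and 5 lower, where 12103 of all 17687 genes were higher and 1875 lower. ESRP2 was not analysed here, and the splice forms themselves were not measured.

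**Figure D5:**
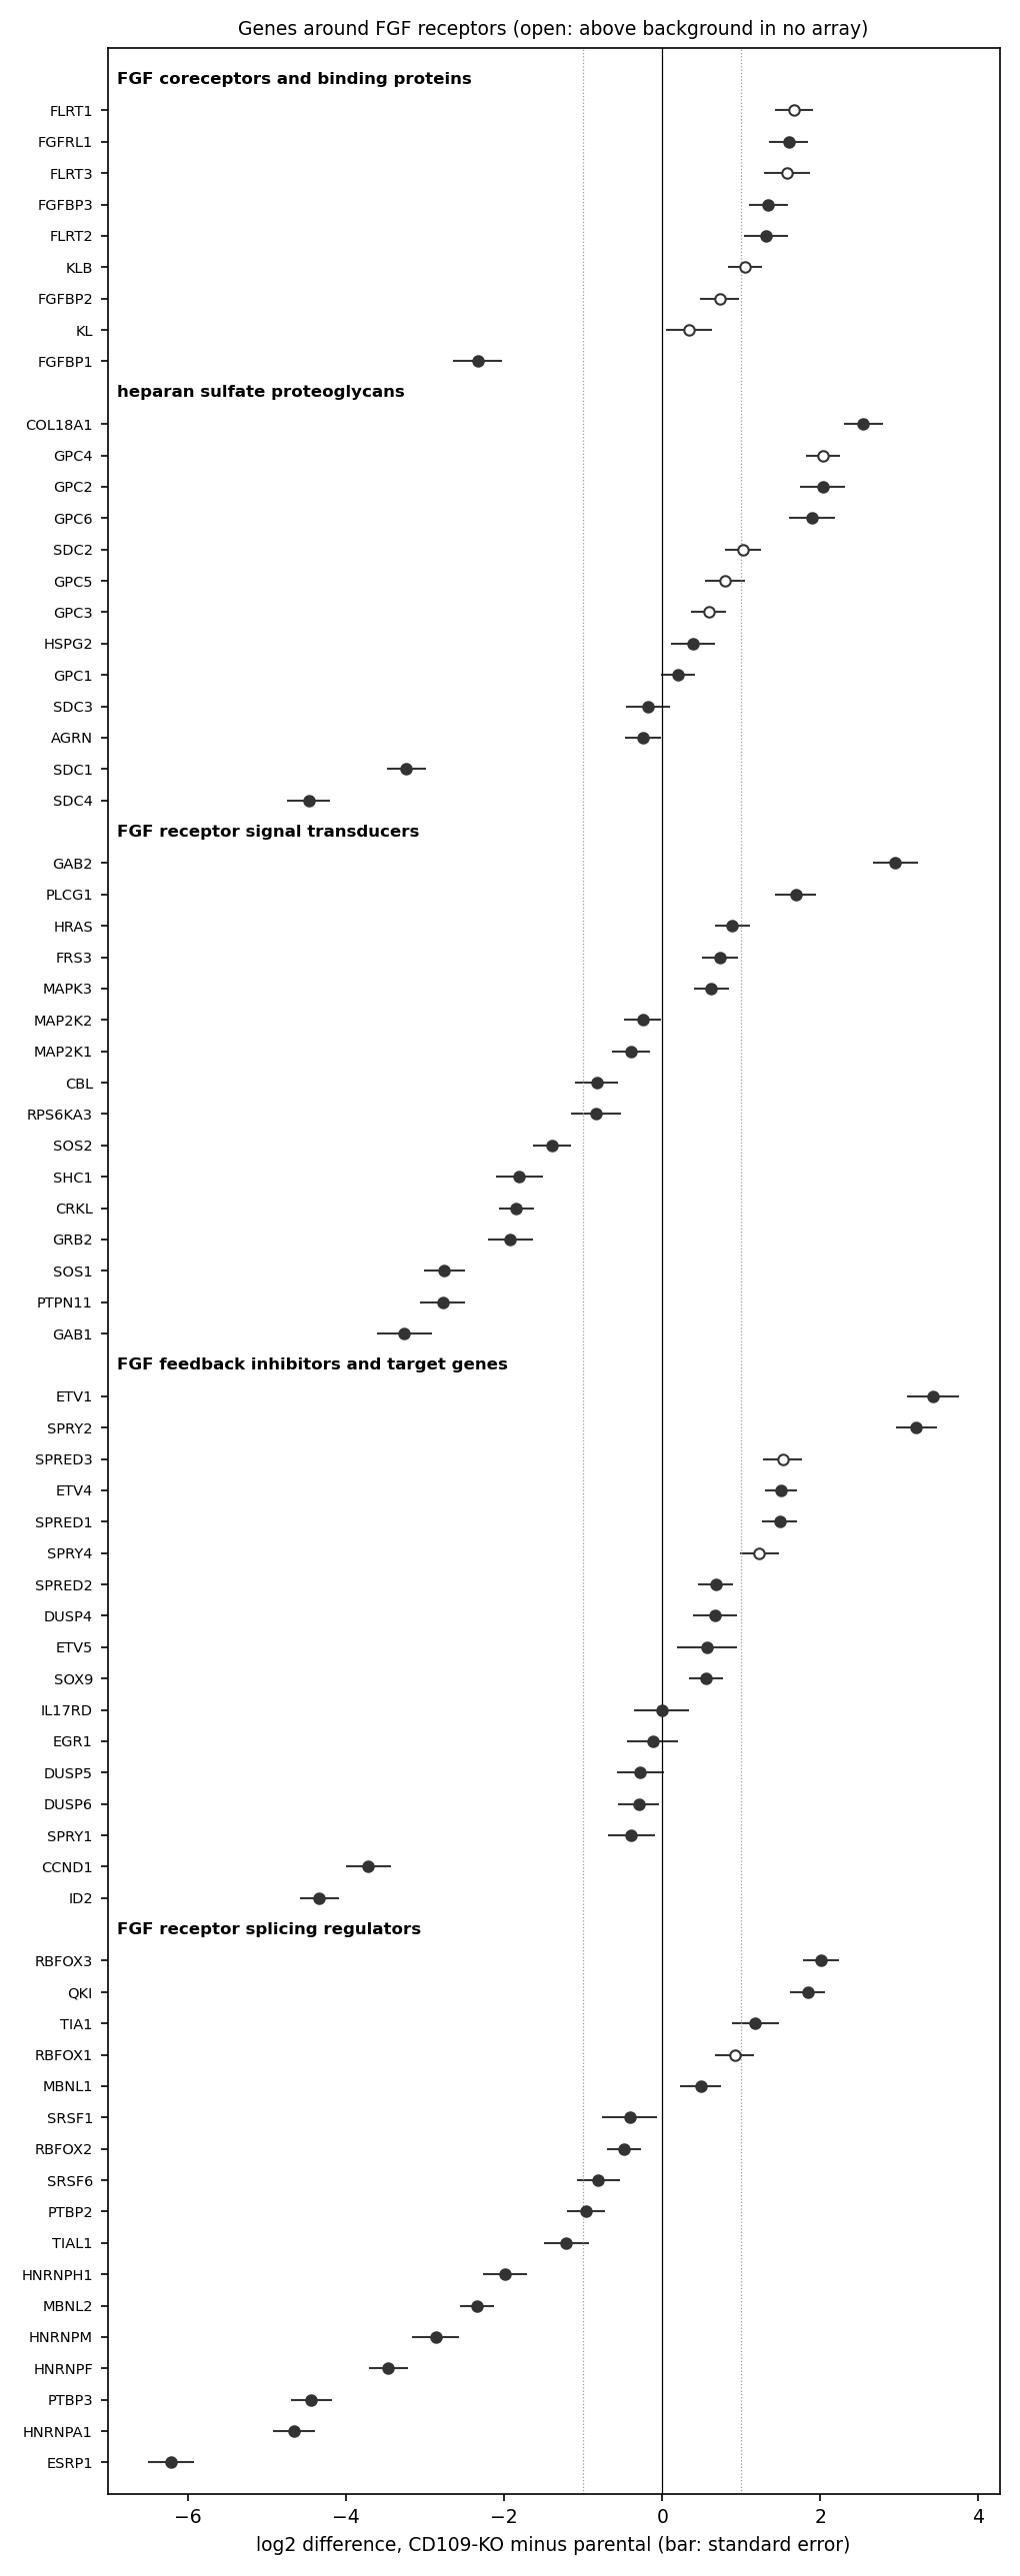
Log2 difference, CD109-KO minus parental (x axis, bars are standard errors), of genes that bind FGFs, carry their signal, respond to it or splice FGF receptor transcripts. Open circles are genes above background in no array and dotted lines mark a fold change of 2. ESRP1 (-6.22), HNRNPA1 (-4.66) and SDC4 (-4.47) are the lowest and ETV1 (3.42) and SPRY2 (3.21) the highest, while differences between -1.68 and 1.21 change sign under one of the centrings.

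Of 15 measured genes known to act around Fgf10 in the organ buds of mouse embryos 11 were higher, 1 lower and 3 did not pass, with a median of 1.79, where 36.2% of all genes were called higher. Of the 11, 6 were above background in all CD109-KO arrays. The count of higher genes was 3 after centring on antigenomic controls, 7 after centring on olfactory receptors and 6 with dim probe sets filtered out. Over all genes these counts were 553, 1609 and 3704, against 6410 as deposited. PRRX1, a homeobox factor of limb mesenchyme, had log2 signals of 11.92, 11.98 and 11.98 in CD109-KO clones 26, 32 and 180, against 4.07, 4.63 and 3.76 in parental samples 5, 2 and 6 (log2 difference 7.81, standard error 0.26, adjusted p = 2.58e-08 from limma). OSR1, a zinc finger factor of early lung and limb mesenchyme, had 10.09, 10.42 and 10.43 in the same clones, against 3.29, 3.65 and 2.79 in the same parental samples. As deposited it was at least 72.2-fold higher. Like FGF10, both were bright in all clones and at or near background in parental cells. BMP4 rose by 2.72, and PTCH1, the Hedgehog receptor and target, was as deposited at least 2.90-fold lower. PRRX1, OSR1 and BMP4 passed under all 4 other scalings, while the fall of PTCH1 did not after centring on housekeeping genes (-0.63).

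To see whether members moved with the genes beside them, the measured protein-coding genes within 500 kb were read from RefSeq positions, a window chosen after the data were seen. Of 104 such neighbours of the 8 members 49 were higher and 25 lower, with a median log2 difference of 0.78. Over all genes 36.2% were called higher and 26.8% lower, with a median of 0.51. FGF10 had 1 measured neighbour, MRPS30, a mitochondrial ribosome gene 420 kb away. MRPS30 averaged 4.71 in CD109-KO cells and 8.39 in parental cells, and as deposited was at least 6.95-fold lower. Of 7 neighbours of FGF7, 0 were higher and 3 were lower, and FAM227B, which overlaps FGF7, was below background in all 6 arrays. The neighbours of FGF3 split, with FGF4 and FGF19 higher by 1.63 and 1.57 and LTO1, ANO1, CCND1 and FADD lower, with log2 differences of -3.84 to -2.26. Around FGF22 21 of 35 and around FGFR4 15 of 26 neighbours were higher, while around FGFR2 0 of 3 were higher and 1 was lower. The median differences around FGF22 and FGFR4 were 1.19 and 1.38. Over all genes with a parental mean between 4 and 6 the median was 1.09. How far the shift of dim genes enters the neighbour counts was not tested.

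Likeness across the 6 arrays was measured by Pearson's r over 11948 genes above background in all arrays of at least 1 group. It is a description over 6 arrays in 2 groups, and the split between the groups makes up most of it. The 5 genes most like FGF10 were KRTAP5-3, EVI5L, NKG7, TTYH2 and BCL11B, with r of 0.9997 to 0.9999, and their log2 differences were 1.84 to 2.41. Those most like FGF7 were DOK7, LRRC4B, ZNF668, RBBP7 and IGFALS, with differences of 1.88 to 2.50. For FGFR2 they were TRANK1, FCF1, DNAJB14, RMDN1 and PIGF, with differences of -2.86 to -0.96. In all, 663 genes had an r above 0.99 with FGF10, 315 with FGF7 and 15 with FGFR2.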

How the data were processed

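Clariom S arrays were hybridized with RNA of A431 cells, 3 from CD109-KO clones and 3 from parental samples. For 24351 probe sets the authors deposited log2 signals after background correction and normalization with Gene Expression Console, by an algorithm not given in the sources used here. Transcriptome Analysis Console and hg38 are named in the submitters' processing notes. Of 21448 gene probe sets 17709 had 1 symbol in the platform annotation, and 3739 are unnamed here. The probe set with the highest mean stood for a gene. Controls (2903 probe sets) did not enter the test. Array medians over gene probe sets were 5.40 to 5.41 in CD109-KO and 5.20 to 5.24 in parental arrays. The number of arrays limits the precision.

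Differences are CD109-KO minus parental, fitted by limma 3.58.1 (R 4.3.3) with lmFit, eBayes and Benjamini-Hochberg adjustment over all gene probe sets, with the thresholds of the study, and the script was tested on simulated data. A gene measured above background in all arrays of one group and none of the other has a bound on its fold, the brighter mean against the mean of the higher of background and signal. All bounds are for the arrays as deposited, and centring shifts them as it shifts the differences. Promoter windows and positions are from RefSeq on GRCh38.p14.

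The members, the pathway and marker lists and the alternatives were chosen with earlier results of these data known. Named were the members, CD109, up to 3 called genes per list and direction by size, FGFRL1, KLB, FGFBP1, ESRP1, ESRP2, SDC1 and FRS2, and the 5 genes most like FGF10, FGF7 and FGFR2. Named after their values were seen were FGF2, FGF5, FGF11, FGF12, DUSP6, EGR1, SPRY1, FAP, LUM, CD68, the neighbours and the markers. The alternatives were an eBayes prior with a trend, the methods' t-test, a repeated quantile normalization, centring on housekeeping genes, antigenomic controls or olfactory receptors, a filter on dim probe sets, other background percentiles and leaving out each array.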

Additional observations from a re-analysis of the deposited data

How the results depend on the processing

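Under the settings listed, 134 of 215 values stayed within their spread or within 1.5 times their count, 78 moved further and 3 reversed. Centring moves all genes of an array alike, and for the other settings the cause was not tested. Centred on housekeeping genes, the log2 differences were 3.27 for FGF3, 6.89 for FGF7, 9.84 for FGF10, 4.25 for FGF22, 0.32 (reversed) for FGFR2, 2.38 for FGFR3 and 3.76 for FGFR4. Centred on antigenomic controls they were 0.38, 4.001, 6.95, 1.37, -2.57, -0.51 (reversed) and 0.87 in the same order, and centred on olfactory receptors 0.72, 4.34, 7.29, 1.70, -2.23, -0.17 (reversed) and 1.21. After repeated quantile normalization FGF22 was at 2.96, FGFR2 at -0.99 and FGFR4 at 2.92, and between group medians FGFR2 was at -0.99. At the 99th percentile of background the bound was 12.1-fold for FGF7 and 89.6-fold for FGF10.

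Over all genes, 12103 were higher when centred on housekeeping genes, 553 on antigenomic controls, 1609 on olfactory receptors and 3704 with dim probe sets filtered out, against 6410. Lower were 1875 when centred on housekeeping genes, 7504 on antigenomic controls and 3140 by the methods' t-test, against 4746. Centred on housekeeping genes, the calls were 2 homologous factors higher, 0 coreceptors lower, 11 proteoglycans higher, 14 heparan sulfate enzymes higher and 0 lower, 7 transducers higher and 3 lower, 15 target genes higher, 7 splicing regulators higher and 5 lower, and 0 genes around Fgf10 lower. Centred on antigenomic controls, higher were 0 other paracrine ligands, 0 endocrine ligands, 0 homologous factors, 0 coreceptors, 1 proteoglycan, 0 enzymes, 1 transducer, 2 target genes, 0 splicing regulators and 3 genes around Fgf10, and lower were 1 homologous factor, 5 proteoglycans, 9 enzymes, 11 transducers and 6 target genes. Centred on olfactory receptors, higher were 2 other paracrine ligands, 1 endocrine ligand, 0 homologous factors, 0 coreceptors, 3 enzymes, 1 transducer, 2 target genes, 1 splicing regulator and 7 genes around Fgf10, and lower were 1 homologous factor, 4 proteoglycans, 11 transducers and 5 target genes. With dim probe sets filtered out, 3 coreceptors, 1 proteoglycan, 3 enzymes, 1 transducer and 6 genes around Fgf10 were higher. The methods' t-test gave 1 endocrine ligand higher and 2 enzymes lower, and repeated quantile normalization 5 transducers higher. Of 43 list genes named, 17 kept their call under all 4 other scalings, and KLB and TIA1 turned direction.

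Leaving out each array in turn changed none of the 174 values beyond these limits. Over these fits FGF10 ranged from 7.98 to 8.44, FGF7 from 4.84 to 5.46, FGF22 from 2.48 to 2.67, FGF3 from 1.39 to 1.88, FGFR4 from 1.99 to 2.20, FGFR2 from -1.48 to -1.14 and FGFR3 from 0.37 to 1.15. No paired analysis was possible because the clones and the parental samples share no replicate number. The level of olfactory receptor genes, higher in CD109-KO arrays, limits what can be said of genes dim in either group.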
